A study of Mus musculus with 6 samples.

Results

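The 39 genes described here are the glutathione transferases and the antioxidant genes linked to the transcription factor NRF2, measured in white adipose tissues (WATs) of mice with and without the neurotensin receptor gene Ntsr2 in adipocytes. They were chosen by symbol, as members of the Gsta, Gstm, Gstp, Gstt, Gstk, Gsto, Gstz and Mgst families or as one of 20 antioxidant genes, with a mean of at least 10 normalized counts over the 6 mice. Of the 21456 genes in the deposited table, 41 matched by symbol and 39 reached that mean, 20 of 22 transferases and 19 of 20 antioxidant genes. Gstt4 (mean 4.35) and Gstm3 (mean 2.67) were below the minimum, Slc7a11 (mean 19.6) was the lowest gene above it, and Gpx2 was not analysed here. The group of genes was proposed with results of the same comparison in view, so the values below are a description of it.

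Poly-A RNA was sequenced from WATs of 6 mice on a chow diet. The control group (3 mice) was Ntsr2 flox/flox, and the Ntsr2 AKO group (3 mice) was Adipoq-cre::Ntsr2 flox/flox. Both groups carry the floxed allele, and only the Ntsr2 AKO mice carry Cre, whose Adipoq promoter is active in brown as well as white adipocytes, so the gene can be removed from both and stays in the other cells of the tissue. The fat depot, age and sex are not given for these mice. The mice are called control 3, 4 and 5 and Ntsr2 AKO 3, 4 and 5, after the numbers in their labels.

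Glutathione is a small thiol peptide made by glutamate-cysteine ligase (Gclc and Gclm) and glutathione synthetase (Gss), and glutathione transferases join it to reactive lipids and foreign compounds. NRF2, the product of Nfe2l2, is held at a low level by KEAP1 and, when oxidants or electrophiles modify KEAP1, enters the nucleus, pairs with a small MAF protein and binds antioxidant response elements of its target genes. In adipose tissue the alpha-class transferase GSTA4 is known for conjugating 4-hydroxynonenal, an aldehyde formed when lipids are oxidized.

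The core of the antioxidant response element, TGACNNNGC, was searched on both strands in RefSeq promoter windows (GRCm38.p6) from 250 bases before to 50 bases after each start site. A window was found for 33 of the 39 genes. The others, Gclc, Gsr, Gsta4, Gstt2, Hmox1 and Sod3, had no window and were not searched. The core was present for 10 of them (30.3%), namely Gclm, Gsta3, Gstm5, Gstm7, Mgst1, Nfe2l2, Prdx1, Sod1, Srxn1 and Txnrd1, and for 1915 of 11312 tested genes with a window (16.9%). A gene can have several windows, and counted by window the core was in 10 of 47 windows of these genes (21.3%) and in 4071 of all 32851 windows (12.4%). In the following sequences the core is in capitals. They are shown because Txnrd1 had a lower mean in Ntsr2 AKO mice at an unadjusted p under 0.05, with overlapping groups, Gclm and Prdx1 overlapped without passing that p, and Gsta3 was higher in every Ntsr2 AKO mouse.
Txnrd1, chr10:82859078-82859158 (+ strand): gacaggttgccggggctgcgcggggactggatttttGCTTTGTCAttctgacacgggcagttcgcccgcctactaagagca
Gclm, chr3:122245387-122245467 (+ strand): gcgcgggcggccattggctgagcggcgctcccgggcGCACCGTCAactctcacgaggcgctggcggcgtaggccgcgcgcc
Prdx1, chr4:116685430-116685510 (+ strand): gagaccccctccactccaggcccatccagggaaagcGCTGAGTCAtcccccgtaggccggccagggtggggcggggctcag
Gsta3, chr1:21240428-21240508 (+ strand): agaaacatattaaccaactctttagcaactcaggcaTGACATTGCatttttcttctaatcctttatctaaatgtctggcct
The core began 134 bases before the start site in Gclm, 133 in Prdx1 and 121 in Gsta3. Txnrd1 has 3 windows, and the core was found in 1 of them, 92 bases before an alternative start site that lies inside the annotated gene. The window at the 5′ end of the Txnrd1 gene held no match. In Srxn1 it was read as TGACCTAGC on the minus strand, 28 bases after the start site. The Srxn1 window also held TGAGTCAGC before the start site. This word has a G at the place of the first C of the core and was not counted. Only in Prdx1, among the 10 genes, did the core overlap the word TGACTCA that the factor AP-1 also binds. On either strand that word also occurs outside the core, in the windows of Srxn1 and Gstm5 among others, and was not searched there. A match to these letters is a description of the sequence and does not show binding. A window without a match does not show that the gene lacks the element, since sequence beyond the window was not searched.

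The recovered reads per mouse ranged from 60405373 to 66098226 in the control group and from 54085088 to 56268725 in the Ntsr2 AKO group. The targeted gene Ntsr2 had normalized counts of 83.8, 64.0 and 152.5 in control mice and 3.10, 8.29 and 0 in Ntsr2 AKO mice. Adipocyte markers were high in every mouse, with summed levels of 2997488 to 4260460 in control and 3584560 to 3785363 in Ntsr2 AKO mice. Among 12 marker lists the summed levels of 10 overlapped between the groups. The list of liver markers was higher in Ntsr2 AKO mice (177326 to 236908, against 99649 to 175924), nearly all of it from Cyp2e1, with Alb at 1170 to 2161 and the liver genes Ttr, Fgb and Ahsg at 0 to 5.18. The list of epithelial markers was lower (34.2 to 41.3, against 45.4 to 313.8), but only 2 of its 9 genes reached the minimum mean. Outside control 3 most of its sum was Cdh1, at 38.2 and 33.6 in control 4 and 5. In Ntsr2 AKO mice Cdh1 was at 33.0, 29.0 and 39.5, so the groups overlapped for this gene. Skeletal muscle and erythroid scores were fitted as covariates. The part of the other lists in the results below was not tested. Control 5 stood apart by skeletal muscle markers, which summed to 3209184 there, 14.0 times the next highest mouse, and ranged from 557 to 228702 in the other mice. Control 3 stood apart by lymphocyte markers, which summed to 1672 there and to 312 to 620 in the other mice, and had the highest epithelial level, 313.8. Because WATs hold many cell types, fewer cells of a type and less RNA per cell cannot be told apart in any of the differences below.

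Genes of the group differed in both directions. Gsta4 was 2.11-fold higher in Ntsr2 AKO mice by the ratio of means, whereas Srxn1 and Hmox1, both NRF2 targets, were 3.71-fold and 4.19-fold lower. For Hmox1 control 5 raised the control mean, and the medians were 4366 in control and 2205 in Ntsr2 AKO mice. Its log2 fold change was -1.16 without control 5. None of the 39 genes passed an adjusted p of 0.05 with limma, beside 0.00619% of all 16157 genes tested. At an unadjusted p under 0.05, 1 gene was higher (2.56%, against 3.08% of all genes), Gsta4, and 4 were lower (10.3%, against 5.27%), Srxn1, Hmox1, Txnrd1 and Slc7a11. The 3 values of the groups did not overlap for Gsta4 and Gsta3, which were higher (5.13%, against 6.82% of all genes), and for Srxn1 and Hmox1, which were lower (5.13%, against 8.16%). DESeq2 on recovered reads, at an adjusted p of 0.05, called Gsta4 higher (2.56% of the 39 genes, against 0.408%) and Srxn1 and Hmox1 lower (5.13%, against 0.947%). edgeR called none of the 39 genes, or of all genes, after adjustment, and 4 of the 39 (10.3%, against 8.19%) at an unadjusted p under 0.05. Most of the group differed little: 28 of 39 genes (71.8%, against 53.9% of all genes) had a log2 fold change under 0.25 in size, and for 30 the 95% interval held neither a doubling nor a halving.

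**Figure D1:**
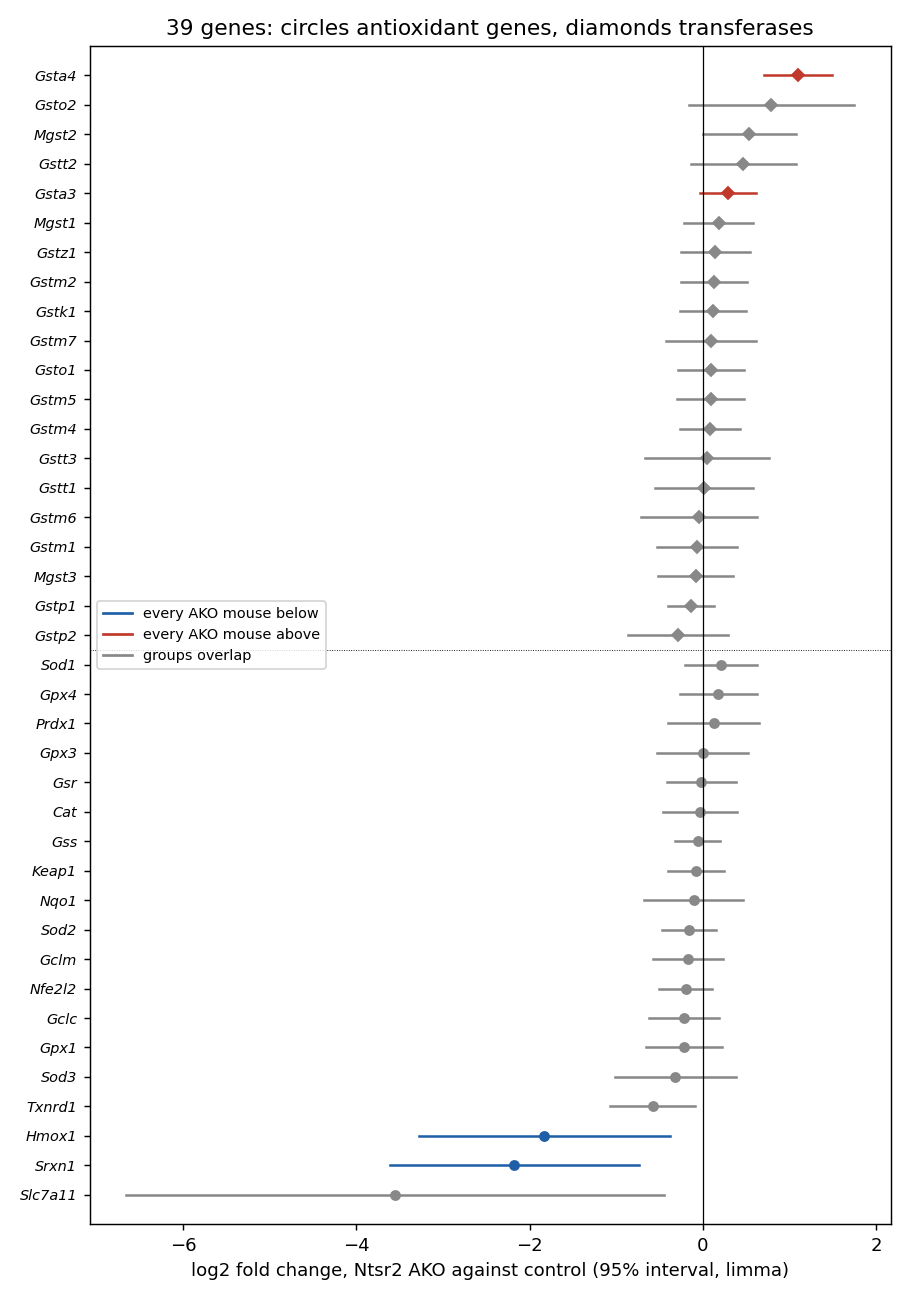
Log2 fold change of each of the 39 genes between Ntsr2 AKO and control mice (x axis), with its 95% interval from limma; n = 3 mice per group. Circles are antioxidant genes, diamonds are transferases, and colours mark whether the values of the groups overlap. Srxn1 (-2.17), Hmox1 (-1.83) and Gsta4 (1.10) stand away from 0, while most genes lie close to it. The interval of Slc7a11 is the widest.

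The regulator and its inhibitor were examined first. Nfe2l2, which encodes NRF2, had normalized counts of 5285, 4750 and 5679 in control 3, 4 and 5 and 5131, 4289 and 4286 in Ntsr2 AKO 3, 4 and 5. The groups overlapped, since Ntsr2 AKO 3 lay above control 4, and the log2 fold change was -0.20 (95% interval -0.50 to 0.11). Keap1, the adaptor that hands NRF2 to a ubiquitin ligase for degradation, had 3283, 2845 and 3732 in control and 3077, 2881 and 3316 in Ntsr2 AKO mice. The values of Keap1 were interleaved, with a log2 fold change of -0.08 (95% interval -0.41 to 0.24). The mRNA of NRF2 does not report its protein, which is controlled by degradation and was not measured here. Of the exon bases of Keap1, 10.9% overlap another annotated gene, and the library kit is not described as marking strand.

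Srxn1 encodes sulfiredoxin, which repairs overoxidized peroxiredoxins. Its normalized counts were 7284, 15117 and 13751 in control 3, 4 and 5 and 6437, 1226 and 2082 in Ntsr2 AKO 3, 4 and 5. All Ntsr2 AKO mice were below all control mice, but Ntsr2 AKO 3 was close to control 3, and the gap between the groups rested on the other mice. The means were 12051 ± 4184 (SD, n = 3) and 3248 ± 2794 (SD, n = 3). The log2 fold change was -2.17 (SE 0.60, limma adjusted p = 0.522), and with DESeq2 the adjusted p was 0.0463. The gene lies at chr2:152105516-152111376 (GRCm38, plus strand).

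Hmox1, heme oxygenase 1, breaks down heme and is also used by macrophages that take up red cells. It had 3428, 4366 and 15533 normalized counts in control 3, 4 and 5 and 2205, 991 and 2371 in Ntsr2 AKO 3, 4 and 5. The groups did not overlap, and control 5, the mouse with the high muscle markers, was far above the other control mice. The means were 7776 ± 6734 (SD, n = 3) and 1856 ± 753 (SD, n = 3), and the log2 fold change was -1.83 (SE 0.61, limma adjusted p = 0.557; DESeq2 adjusted p = 0.0260). Without control 5 the log2 fold change was -1.16. The 9 macrophage markers in the table summed to 32562 to 95033 in control and 34831 to 77924 in Ntsr2 AKO mice, and the 7 erythroid markers to 51621 to 143278 and 52628 to 173964. In both lists the groups overlapped, and no marker of either list separated them. With the mean log2 level of the erythroid markers as a covariate, the unadjusted limma p of Hmox1 stayed under 0.05. Among all genes that setting put 664 higher and 1087 lower under this p, against 497 and 852 in the analysis reported. No macrophage score was fitted, and the part of these cells in the level of Hmox1 was not tested. The gene lies at chr8:75093621-75100589 (GRCm38, plus strand).

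Txnrd1, thioredoxin reductase 1, restores thioredoxin with NADPH. Its normalized counts were 6252, 4332 and 6504 in control and 4586, 3203 and 3591 in Ntsr2 AKO mice. Ntsr2 AKO 3 lay above control 4, so the groups overlapped, and the log2 fold change was -0.58 (SE 0.21, limma adjusted p = 0.565). Slc7a11, the cystine importer that supplies cysteine for glutathione, had only 58.9, 16.5 and 25.9 normalized counts in control mice and 16.5, 0 and 0 in Ntsr2 AKO mice. These values stand for 64, 16 and 27 reads and for 16, 0 and 0 reads, and the log2 fold change of -3.55 (SE 1.31, limma adjusted p = 0.565) moved between -5.74 and -2.10 with the pseudocount. With DESeq2 the adjusted p of Slc7a11 was 0.623, and neither DESeq2 nor edgeR gave it an unadjusted p under 0.05. The highest value of Slc7a11 was in control 3, the mouse with the high lymphocyte and epithelial markers. Ntsr2 AKO 4 had the lowest value of all mice for Srxn1, Hmox1 and Txnrd1, and without it the unadjusted limma p was 0.0691 for Hmox1 and 0.0936 for Txnrd1. The unadjusted limma p of Txnrd1 was also above 0.05 without control 3 (0.0838), control 5 (0.0841) or Ntsr2 AKO 5 (0.0699). That of Slc7a11 was above 0.05 without control 3, control 5, Ntsr2 AKO 4 or Ntsr2 AKO 5, where it ranged from 0.0587 to 0.0995. Without control 5, the mouse with the high muscle markers, the log2 fold change was -2.04 for Srxn1, -0.47 for Txnrd1, -3.64 for Slc7a11 and 0.98 for Gsta4. Without control 3 it was -2.50 for Srxn1, -2.25 for Hmox1, -3.06 for Slc7a11 and 1.05 for Gsta4.

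**Figure D2:**
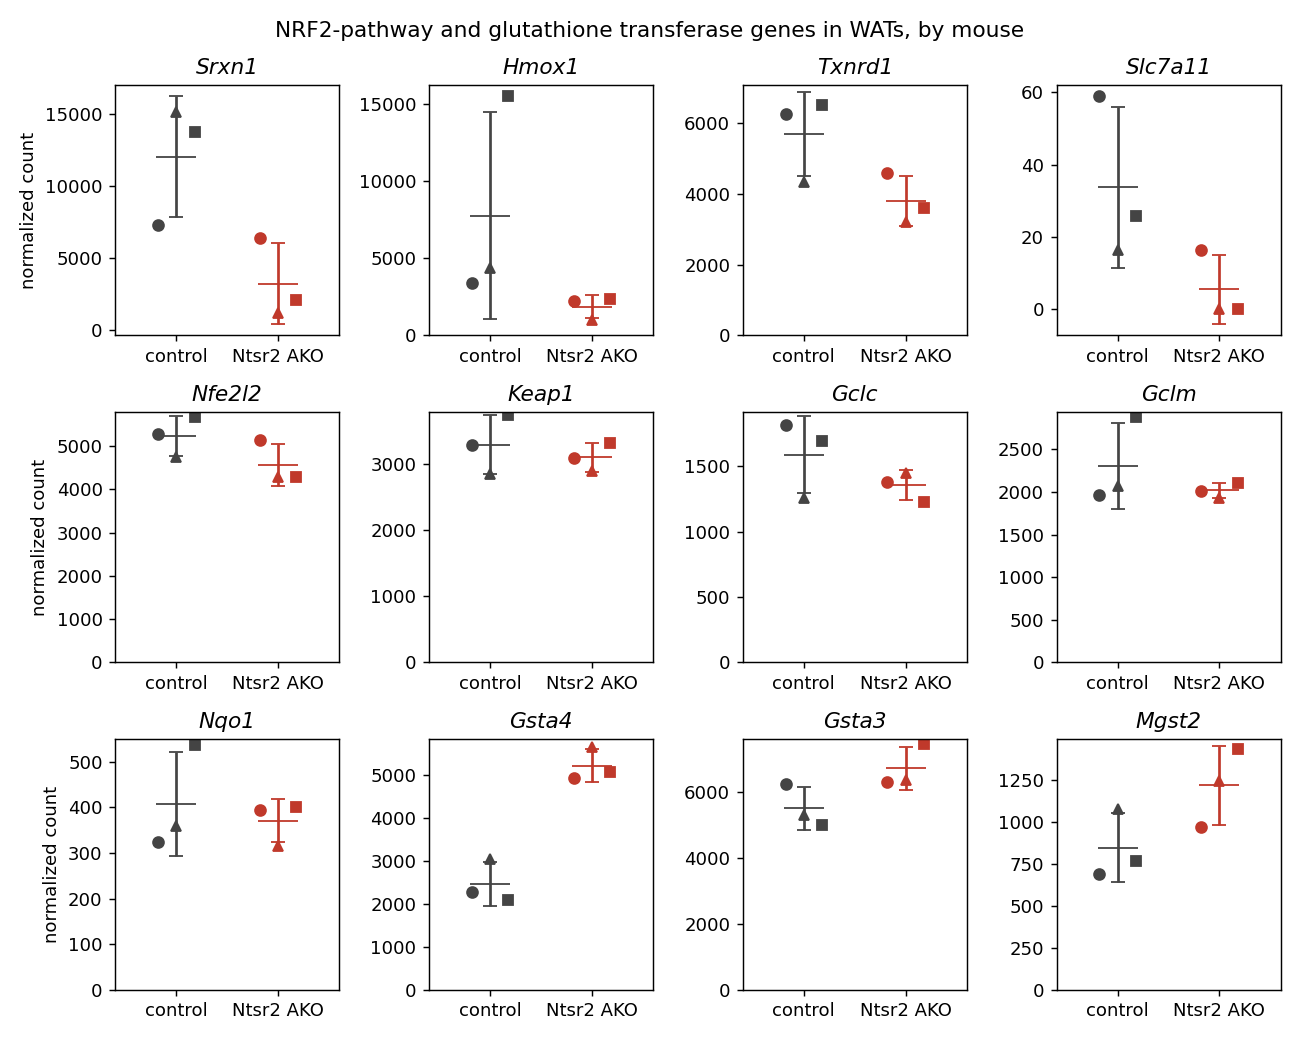
Normalized counts (y axis, linear, from 0 or below where an error bar reaches there) of 12 genes in control (grey) and Ntsr2 AKO (red) mice. Each symbol is a mouse (circle 3, triangle 4, square 5), the horizontal line is the mean and the bar the SD (n = 3). Gsta4 separates the groups clearly, and Hmox1 separates them with wide spread among control mice. Srxn1 does so with wide spread in both groups, and its value in Ntsr2 AKO 3 lies close to control 3. Nfe2l2, Keap1, Gclc, Gclm and Nqo1 overlap.

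The groups overlapped for Nqo1, Gclc and Gclm. Nqo1, a quinone reductase often used as a readout of NRF2, had 324, 360 and 537 normalized counts in control and 394, 316 and 402 in Ntsr2 AKO mice, with a log2 fold change of -0.11 (95% interval -0.68 to 0.47). Gclc, the catalytic subunit of glutamate-cysteine ligase, had 1818, 1261 and 1693 in control and 1384, 1453 and 1228 in Ntsr2 AKO mice (log2 -0.22, 95% interval -0.62 to 0.19). Gclm, its modifier subunit, had 1963, 2076 and 2885 in control and 2014, 1935 and 2110 in Ntsr2 AKO mice (log2 -0.17, 95% interval -0.57 to 0.23). In all 3 genes control 4 or control 3 lay within or below the range of the Ntsr2 AKO mice, and the log2 fold change of Gclm was -0.00 without control 5. Gss, which adds the last amino acid of glutathione, and Gsr, which reduces oxidized glutathione, had log2 fold changes of -0.06 and -0.02. Whether the targets differed from each other in their response was not tested.

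The transferases were next ordered by level, as normalized counts per kilobase of exon. Mgst1, a membrane-bound transferase with peroxidase activity, was the highest, at 30844 ± 4705 per kilobase in control and 34745 ± 1136 in Ntsr2 AKO mice (SD, n = 3 each). It made up 36.6% ± 3.31 and 38.4% ± 2.72 of the summed level of the 20 transferases. The next genes, Mgst3, Gstz1 and Gstm1, lay between 8451 and 11698 in the group means, well below Mgst1, and overlapped each other within their SD. The lowest transferase was Gsto2, at 46.4 ± 23.9 and 75.5 ± 16.4. The summed level of the transferases was 84055 ± 8019 in control and 90670 ± 4372 in Ntsr2 AKO mice, and the groups overlapped.

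**Figure D3:**
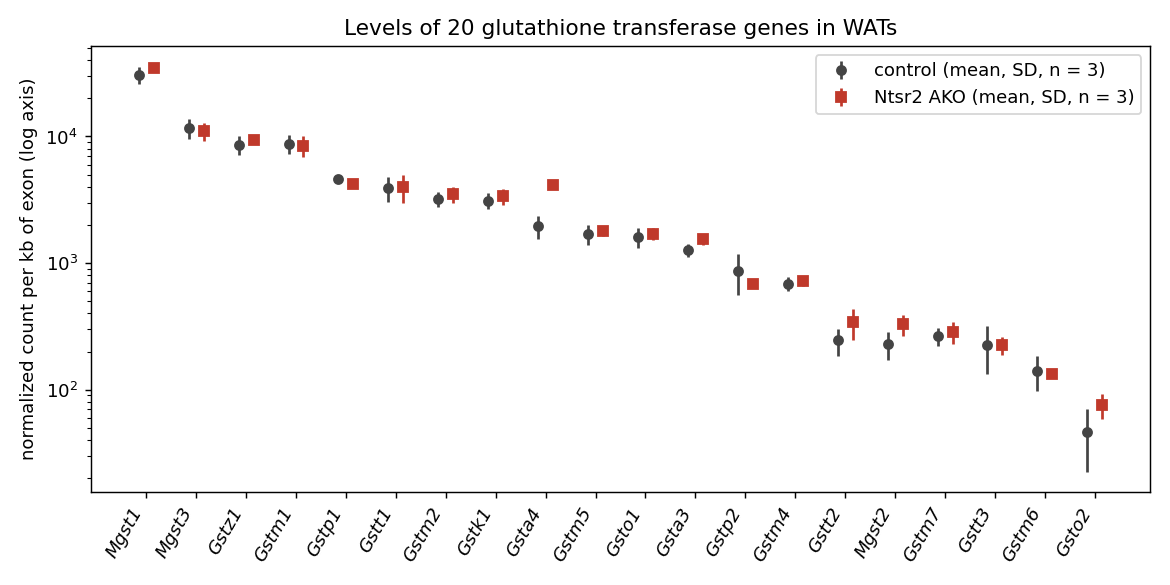
Normalized count per kilobase of exon (y axis, log scale) of the 20 transferases, ordered by mean level, in control (grey circles) and Ntsr2 AKO mice (red squares). Points are means and bars are SD (n = 3). Gsta4 is the gene whose groups lie farthest apart for their spread, at 1950 in control and 4120 in Ntsr2 AKO mice, and Mgst1 is the highest in both groups.

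The alpha class held the transferase with the largest difference. Gsta4 had 2272, 3052 and 2082 normalized counts in control 3, 4 and 5 and 4931, 5653 and 5063 in Ntsr2 AKO 3, 4 and 5. Every Ntsr2 AKO mouse was well above every control mouse, and the spread within each group was small beside the gap. The means were 2469 ± 514 and 5216 ± 385 (SD, n = 3 each), with a log2 fold change of 1.10 (SE 0.17, 95% interval 0.70 to 1.49, limma adjusted p = 0.359, DESeq2 adjusted p = 3.8e-05). The unadjusted p stayed under 0.05 in 18 of 18 alternative settings, with log2 fold changes from 0.98 to 1.26. Gsta4 thereby took 2.31% ± 0.31 of the summed transferase level in control and 4.54% ± 0.18 in Ntsr2 AKO mice. It lies at chr9:78182774-78209349 (GRCm38, plus strand), and none of its exon words of 31 bases occurs in another annotated gene.

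Gsta3, the other alpha-class gene, had 6251, 5293 and 4994 normalized counts in control and 6322, 6386 and 7479 in Ntsr2 AKO mice. The groups did not overlap, but control 3 and Ntsr2 AKO 3 were nearly equal, and the log2 fold change was 0.29 (95% interval -0.03 to 0.61, limma adjusted p = 0.612). Per kilobase the ratio of Gsta4 to Gsta3 was 1.55 ± 0.38 in control and 2.68 ± 0.36 in Ntsr2 AKO mice. The summed alpha class was 3219 ± 418 and 5669 ± 296 per kilobase.

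The mu class showed no such difference. Gstm1, its most abundant gene, had 15514, 11559 and 11809 normalized counts in control and 13578, 14062 and 9705 in Ntsr2 AKO mice, with a log2 fold change of -0.06 (95% interval -0.53 to 0.40). The log2 fold changes of Gstm2, Gstm4, Gstm5, Gstm6 and Gstm7 were 0.13, 0.08, 0.09, -0.05 and 0.10, and all overlapped between the groups. These genes stand side by side on chromosome 3. Of the 31-base words of Gstm1, 28.8% occur in another gene, most of all in Gstm2-ps1, which is not among the genes tested here. Reads of Gstm1 can thus be split with such a copy. In the pi class Gstp1 had 6918, 7137 and 7518 in control and 6420, 7180 and 6097 in Ntsr2 AKO mice (log2 -0.13), and Gstp2, with 60.3% of its words shared, had a log2 fold change of -0.29.

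The remaining transferase families also overlapped between the groups. In the theta class Gstt1 had 7444, 5594 and 4869 normalized counts in control and 6851, 7021 and 4368 in Ntsr2 AKO mice (log2 0.02), Gstt2 had a log2 fold change of 0.46 and Gstt3 of 0.05. Gstk1, of the kappa class, had 4712, 5116 and 3850 in control and 4246, 5626 and 4949 in Ntsr2 AKO mice (log2 0.12). Gstz1, which also works in tyrosine breakdown, had 42065, 52382 and 37146 in control and 47695, 46560 and 49398 in Ntsr2 AKO mice (log2 0.14). For Gstz1 all Ntsr2 AKO mice lay inside the range of the control mice.

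In the omega class Gsto1 had 2852, 3928 and 2979 normalized counts in control and 3168, 3309 and 3855 in Ntsr2 AKO mice (log2 0.09), and Gsto2 had a log2 fold change of 0.79 with a wide interval (-0.16 to 1.75). Mgst1 had 58290, 72872 and 55108 in control and 67955, 69431 and 72441 in Ntsr2 AKO mice (log2 0.18). Mgst2 had a log2 fold change of 0.53 (95% interval -0.00 to 1.07, limma adjusted p = 0.594) and Mgst3 of -0.08. As a whole, 15 of 20 transferases had a log2 fold change above 0, with a median of 0.09, beside a median of -0.01 over all genes tested and 49.0% of them above 0.

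Of the 19 antioxidant genes 16 had a log2 fold change below 0 (51.0% of all genes tested did), with a median of -0.16. For 15 of the 19 the 95% interval held 0, and the sign changed in 7 of 18 alternatives for Gpx3, 6 for Gsr, 3 for Cat, 2 each for Keap1, Nqo1 and Prdx1 and 1 for Gss. Gpx3, the secreted glutathione peroxidase, was the most abundant of all 39 genes per kilobase and had 119004, 82474 and 75356 normalized counts in control and 89266, 98642 and 83606 in Ntsr2 AKO mice (log2 -0.00, 95% interval -0.53 to 0.52). Gpx1, in the cytosol, and Gpx4, which reduces lipid peroxides in membranes, had log2 fold changes of -0.22 and 0.18. Of the 31-base words of Gpx4, 38.9% occur in another annotated gene. Cat, the peroxisomal catalase, had 46299, 66468 and 50607 in control and 53119, 54808 and 49667 in Ntsr2 AKO mice (log2 -0.04).

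Among the superoxide dismutases Sod1, the cytosolic enzyme, had 29081, 39282 and 27353 normalized counts in control and 33912, 38511 and 36910 in Ntsr2 AKO mice (log2 0.21). Sod2, in mitochondria, and Sod3, outside the cell, had log2 fold changes of -0.16 and -0.32. Prdx1, a peroxiredoxin that sulfiredoxin repairs, had 20265, 33441 and 26157 in control and 25569, 26171 and 34220 in Ntsr2 AKO mice (log2 0.12). All of these genes overlapped between the groups.

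A list of 77 further genes of the NRF2 and glutathione pathways, chosen by function, held 75 tested genes. At an unadjusted p under 0.05, 2 were higher (2.67%, against 3.08% of all genes) and 6 lower (8.0%, against 5.27%). The groups did not overlap for 2 higher genes (2.67%, against 6.82%) and 6 lower genes (8.0%, against 8.16%). None passed adjustment with limma, and DESeq2 called 1, Maff. Their median log2 fold change was -0.01. The list held 7 basic leucine zipper factors related to NRF2 or its partners, and 3 of them, Maff, Mafk and Bach1, were among the 6 lower genes. The others, Mafg, Bach2, Nfe2l1 and Nfe2l3, overlapped between the groups, with log2 fold changes of -0.21, -0.09, -0.39 and 0.45. These 4 were named after their values were seen. Maff, a small MAF protein, had 1888, 1095 and 2509 normalized counts in control and 798, 238 and 240 in Ntsr2 AKO mice. All Ntsr2 AKO mice lay below all control mice, with a log2 fold change of -2.27 (SE 0.53, limma adjusted p = 0.520, DESeq2 adjusted p = 0.00892).

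Bach1, which competes with NRF2 for MAF partners and represses Hmox1, had 7727, 2669 and 4167 in control and 2602, 1580 and 2129 in Ntsr2 AKO mice (log2 -1.10, limma adjusted p = 0.565), with its highest value in control 3. Mafk had 3543, 1729 and 3636 in control and 1780, 1546 and 1099 in Ntsr2 AKO mice (log2 -0.96, limma adjusted p = 0.558). Bach1 did not overlap between the groups and Mafk did. Sqstm1, the p62 protein that draws KEAP1 into autophagy, had 20387, 18825 and 25176 in control and 17592, 14542 and 14206 in Ntsr2 AKO mice (log2 -0.47).

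Ggct, which releases oxoproline during glutathione breakdown, had 788, 720 and 943 normalized counts in control and 565, 513 and 598 in Ntsr2 AKO mice (log2 -0.54). Slc3a2, the heavy chain that pairs with the cystine importer, had 7933, 8088 and 6728 in control and 6858, 4669 and 4035 in Ntsr2 AKO mice (log2 -0.58). Ggct was lower in every Ntsr2 AKO mouse, whereas for Slc3a2 Ntsr2 AKO 3 lay above control 5. The higher genes were Pir, with 568, 567 and 450 in control and 672, 731 and 738 in Ntsr2 AKO mice (log2 0.44), and Abcc5, an export pump, with 6504, 5870 and 6398 in control and 7640, 7237 and 7846 in Ntsr2 AKO mice (log2 0.28).

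**Figure D4:**
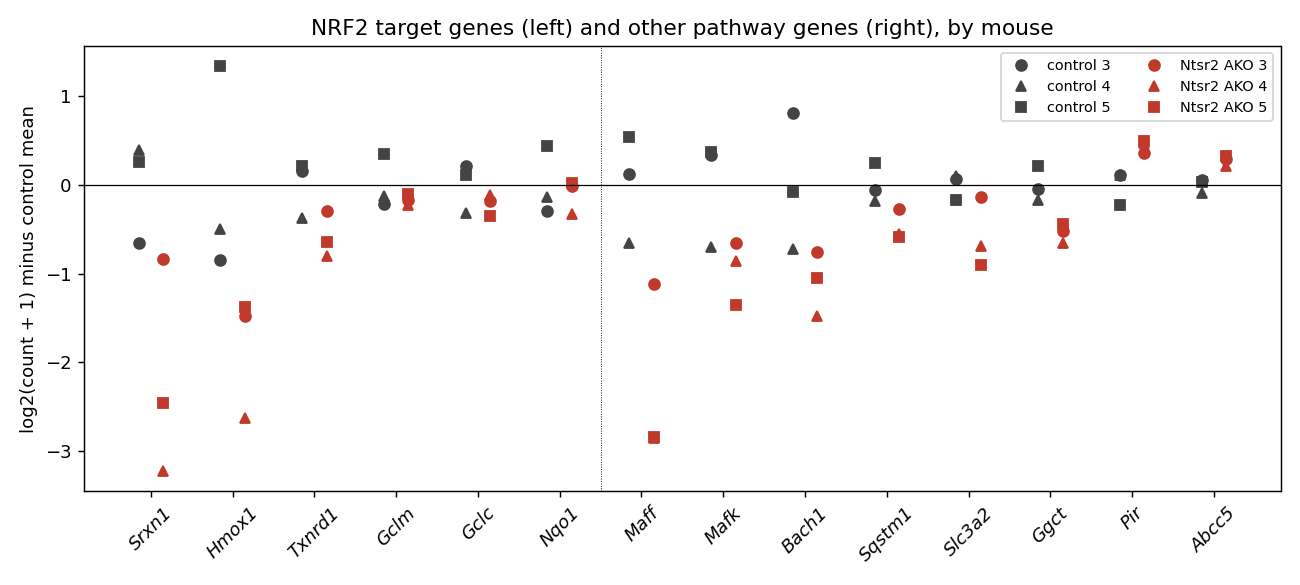
Difference of each mouse from the control mean on the log2(normalized count + 1) scale (y axis) for 6 NRF2 targets (left of the dotted line) and 8 other pathway genes (right). Grey symbols are control and red symbols Ntsr2 AKO mice. Srxn1, Hmox1 and Maff are lowest in Ntsr2 AKO 4, while the mice of both groups are interleaved for Gclm, Gclc and Nqo1.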

How the data were processed

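RNA-seq libraries of WATs from 3 control and 3 Ntsr2 AKO mice were analysed. The paper's methods name poly-A selection, an NEBNext Ultra kit and paired-end reads, trimmed with Trimmomatic, aligned with HISAT2 and quantified with StringTie, and the submitters' processing notes name the build mm10. Tool versions and the annotation are not given in the sources used here. The values that the authors deposited are a signal: normalized counts, in which the reads of a gene were divided by 1 size factor per mouse, as the values themselves show. Division by the step of the low values gave whole reads (tolerance 0.01) for 100% of values. StringTie derives counts from coverage, so totals approximate reads. At this depth the number of mice limits precision, except for genes with few reads such as Slc7a11.

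The 16157 genes with a mean of at least 10 were tested with limma 3.58.1 in R 4.3.3 (lmFit, eBayes with trend, two-sided) on log2(normalized count + 1), with Benjamini-Hochberg adjustment over all of them and a threshold of 0.05. Fold changes are on this scale, and those of genes with few reads depend on the pseudocount. edgeR 4.0.16 (quasi-likelihood) and DESeq2 1.42.0 were run on recovered reads and called 0 and 219 genes after adjustment. The other alternatives were the pseudocount, the filter, quantile and TMM scaling, no trend, a replicate block, the omission of each mouse, and skeletal muscle or erythroid scores as covariates. Scripts were tested on simulated data. Genes were given in every mouse where the groups did not overlap, where the unadjusted p was under 0.05, where they regulate or are classical targets of NRF2, or where they were the highest of their family per kilobase. Of the other pathway genes, at most 8 by smallest p were named. The genes and lists were chosen with earlier results of these data known. Positions and exon lengths are from GENCODE M21 (GRCm38) and promoters from RefSeq. The labels do not say that mice were separate litters or batches. Each limma p compares the difference of the groups with the spread between these mice, which eBayes draws toward the trend over all genes.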

Additional observations from a re-analysis of the deposited data

How the results depend on the processing

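With limma, edgeR or any other setting run except DESeq2, none of the 39 genes passed adjustment, and with DESeq2 3 did. Genes higher at an unadjusted p under 0.05 numbered 1 in the analysis reported, 3 with quantile normalization, 2 with TMM factors, 2 with DESeq2, 2 with the replicate block, 2 with the erythroid score as a covariate, and 1 to 4 with 1 mouse left out (4 without control 3, 3 without control 4). Genes lower numbered 4, 3 with DESeq2 and 3 with edgeR, both of which end the call of Slc7a11, and 1 to 5 with 1 mouse left out (1 without Ntsr2 AKO 4, 2 without control 3, control 5 or Ntsr2 AKO 5). Other pathway genes higher numbered 2, and 1 without the trend, 1 with the skeletal muscle score, 5 with the erythroid score and 0 to 5 with 1 mouse left out (0 without control 5 or Ntsr2 AKO 4, 1 without Ntsr2 AKO 5, 5 without control 4). Other pathway genes lower numbered 6, 9 with DESeq2, and 2 to 7 with 1 mouse left out (3 without Ntsr2 AKO 4, 2 without Ntsr2 AKO 5). The medians of both groups of genes kept their sign. With the replicate number as a block 2 of the 39 genes were higher and 4 lower, and none passed adjustment. Same-numbered mice had correlations of their deviations of 0.45, -0.24 and 0.41. The highest among pairs with unlike numbers was 0.26, for control 4 and Ntsr2 AKO 3. Whether a shared number stands for a shared batch or litter was not tested. Srxn1 stayed under an unadjusted p of 0.05 in 18 of 18 alternatives (log2 -2.84 to -1.65), Hmox1 in 17 of 18 (-2.25 to -1.16), Txnrd1 in 14 of 18 (-0.77 to -0.47) and Slc7a11 in 11 of 17 (-5.74 to -2.10). Quantile normalization moved the median of all genes by 0.05 (log2). The cause of these shifts was not tested.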
